A study of Mus musculus with 8 samples.

Results

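The replication-dependent histone genes encode the core histones H2A, H2B, H3 and H4, around which newly copied DNA is wrapped in S phase, and the linker histone H1. They lie in clusters, and their mRNAs are known to end in a short stem-loop, bound by the stem-loop binding protein Slbp, in place of a poly(A) tail. Some of these genes are also known to give polyadenylated mRNAs, including in differentiated cells that no longer divide. The genes described here are those whose symbol begins with Hist1h, Hist2h, Hist3h or Hist4h, 70 of the 48490 genes in the deposited table. The set was proposed with the level of Hist1h2bc in the GoF group already in view, so every value of these genes in GoF against the other groups is a description and carries no test.

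The study profiled cells of the hypertrophic chondrocyte lineage from the proximal tibia of mice at postnatal day 5, by Smart-seq2 RNA sequencing of 70 hand-picked tdTomato-positive cells per library. GoF libraries (n = 2) came from mice in which exon 3 of 1 Ctnnb1 allele was removed (Ctnnb1-exon3 Δ/+), which stabilises β-catenin. LoF libraries (n = 4) came from mice with both Ctnnb1 alleles deleted (Ctnnb1Δ/Δ), and WT libraries (n = 2) from mice with Cre and reporter alone. All 3 groups carried Col10a1Cre and Rosa26-Tdtomato, so recombination was driven by Cre under Col10a1, a gene of hypertrophic chondrocytes, and the picked cells are those cells and their descendants. Whether the libraries of 1 group stem from different animals is not in the labels, and the p-values below reflect library-to-library spread, which may be technical. Y-linked transcripts were found in both GoF libraries and in LoF 2 and 3, and Xist in LoF 1 and 4 and both WT libraries, so sex and genotype cannot be told apart between GoF and WT.

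Values are FPKM, fragments per kilobase of gene model scaled to the mapped fragments of the library, as deposited. The libraries held 12792 and 13690 genes above 0 in GoF, 12587 to 13944 in LoF and 13357 and 13408 in WT, and their relative depth ran from 0.901 to 1.16 times that of WT library 2. Read totals are not given by FPKM, so no counting intervals can be set. The Cre target Ctnnb1 had 72.0 and 86.7 FPKM in GoF, 67.3 to 81.1 FPKM in LoF and 137 and 146 FPKM in WT. A gene-level value does not measure the deleted exons. Osteoblast-lineage transcripts were present in every library: Col1a1, the chain of bone collagen, had 6090 and 4626 FPKM in GoF, 244 to 821 FPKM in LoF and 5470 and 6681 FPKM in WT. Col10a1 itself had 189.6 and 177 FPKM in GoF, 9.61 to 114 FPKM in LoF and 6.24 and 20.5 FPKM in WT. Spp1 was highest in LoF, at 7823 to 11845 FPKM, beside 1200 and 1940 FPKM in GoF and 4236 and 3450 FPKM in WT. Of 8 such lineage markers, 3 were higher and 1 lower in GoF than in LoF (limma adjusted p under 0.05). When LoF was compared with WT, 1 was higher and 2 were lower. Between GoF and WT none was called, but 4 of the 8 had an unadjusted p under 0.05 by limma. The part of these differences in the histone values was not tested.

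The 3′ stem-loop is shown first because it decides how these mRNAs are normally ended, while Smart-seq2 primes from a poly(A) tail. The elements below were read from the GENCODE vM21 transcripts on GRCm38, whose release was not shown to be the one the authors used. They are written 5′ to 3′, with the stem-loop letters in capitals: GGNN, then CTTNTN, then AGNNCC, 16 bases without a gap, searched on the transcript strand.
Hist1h1c: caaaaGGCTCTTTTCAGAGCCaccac
Hist2h2aa1: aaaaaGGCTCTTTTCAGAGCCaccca
Hist1h2be: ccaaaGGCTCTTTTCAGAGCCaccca
Hist1h2ao: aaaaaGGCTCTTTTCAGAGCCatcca
Hist1h2ag: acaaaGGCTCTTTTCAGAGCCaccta
Hist1h3d: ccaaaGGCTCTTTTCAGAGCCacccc
Hist1h4i: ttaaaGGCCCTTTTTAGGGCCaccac
The models of 68 members were found in this annotation, 47 of them with the coordinates of the deposited table. Of the 68, 44 held the motif, against 0.278% of 58727 other coding transcripts. Some models are too short to reach the place of the stem-loop, so a missing match does not show a missing element. The core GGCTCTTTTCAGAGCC was shared by 24 genes, whereas Hist1h4i has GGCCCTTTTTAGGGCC. The model of Hist1h2bc, the highest member, has no match. The element of Hist1h1c lies 840 bases before the end of its model and that of Hist1h2be 1861 bases before it, so both models run on past the stem-loop. In Hist2h2aa1, Hist1h2ao and Hist1h2ag the model ends 35, 31 and 23 bases after it. Hist2h2aa2 has the same element as Hist2h2aa1, letter for letter.

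Promoters of genes that the results turn on are printed next, from the RefSeq table for GRCm38.p6, as the 250 bases before and 50 bases after the annotated start. Capitals mark any of 5 motifs on either strand: the octamer ATTTGCAT, known from H2B promoters, CCAAT, the TATA box TATAAA, the H1 box AAACACA, and CTTTGA, the core letters bound by the TCF/LEF partners of β-catenin. Matches that overlapped one another were each kept.
Hist1h1c, chr13:23738557-23738856, plus strand: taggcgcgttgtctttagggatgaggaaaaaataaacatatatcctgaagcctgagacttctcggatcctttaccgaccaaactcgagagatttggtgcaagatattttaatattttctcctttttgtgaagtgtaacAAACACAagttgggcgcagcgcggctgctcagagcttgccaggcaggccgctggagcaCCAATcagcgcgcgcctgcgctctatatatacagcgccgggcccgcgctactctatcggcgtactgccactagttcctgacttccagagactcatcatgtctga
Hist2h2aa1, chr3:96245247-96245546, plus strand: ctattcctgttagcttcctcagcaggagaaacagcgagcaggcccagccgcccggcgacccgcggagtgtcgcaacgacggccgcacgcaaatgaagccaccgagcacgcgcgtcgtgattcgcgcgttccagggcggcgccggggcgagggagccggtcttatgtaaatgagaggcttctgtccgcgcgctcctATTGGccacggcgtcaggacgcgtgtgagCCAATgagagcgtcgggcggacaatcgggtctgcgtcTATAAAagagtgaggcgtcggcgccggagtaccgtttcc
Hist1h2be, chr13:23585921-23586220, minus strand: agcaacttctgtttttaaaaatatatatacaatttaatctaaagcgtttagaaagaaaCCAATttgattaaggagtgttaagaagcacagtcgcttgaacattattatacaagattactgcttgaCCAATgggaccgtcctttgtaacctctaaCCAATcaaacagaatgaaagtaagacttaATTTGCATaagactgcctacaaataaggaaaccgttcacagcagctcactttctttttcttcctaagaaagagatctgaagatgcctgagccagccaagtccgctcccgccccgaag
Hist1h2be, upstream start, chr13:23621045-23621344, minus strand: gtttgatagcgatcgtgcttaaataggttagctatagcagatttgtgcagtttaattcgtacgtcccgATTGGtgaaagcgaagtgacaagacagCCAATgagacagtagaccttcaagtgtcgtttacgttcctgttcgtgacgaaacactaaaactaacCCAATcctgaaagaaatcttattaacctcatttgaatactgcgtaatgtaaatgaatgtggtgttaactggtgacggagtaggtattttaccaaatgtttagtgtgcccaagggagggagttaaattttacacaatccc
Hist1h2ac, chr13:23683910-23684209, minus strand: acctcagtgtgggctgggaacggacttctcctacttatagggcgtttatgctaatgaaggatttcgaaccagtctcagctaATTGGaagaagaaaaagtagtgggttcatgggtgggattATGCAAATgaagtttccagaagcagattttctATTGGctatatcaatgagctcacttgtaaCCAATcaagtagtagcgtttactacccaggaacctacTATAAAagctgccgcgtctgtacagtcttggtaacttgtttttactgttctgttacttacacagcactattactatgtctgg
Hist1h2ao, chr13:21810117-21810416, plus strand: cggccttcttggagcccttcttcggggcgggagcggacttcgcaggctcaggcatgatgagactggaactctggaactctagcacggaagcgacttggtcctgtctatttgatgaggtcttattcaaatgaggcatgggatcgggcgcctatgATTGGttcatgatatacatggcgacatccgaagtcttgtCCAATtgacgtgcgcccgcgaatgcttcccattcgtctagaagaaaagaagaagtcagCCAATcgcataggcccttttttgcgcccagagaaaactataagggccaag
The table gives Hist1h2be a pair of starts. The window at chr13:23621045-23621344 spans the start of the deposited gene and holds 3 CCAAT matches and no octamer, whereas the other holds the octamer. The Hist1h2ac window covers the stretch between that gene and the divergent Hist1h2bc, and it holds the octamer, 3 CCAAT matches and a TATA box. The Hist1h2ao window overlaps that of the divergent Hist1h2bq. Hist2h2aa1 and Hist2h2aa2 share an unbroken run of 219 of the 300 bases. Over the 62 members matched in the table, the octamer was found in 14 (22.6%, against 1.74% of all 32851 promoters), 7 of 18 H2A and 7 of 16 H2B promoters and no other. CCAAT was found in 53 members (85.5%, against 37.4%) and TATAAA in 35 (56.5%, against 13.6%). The H1 box was found in 9 members, 5 of them among the 6 H1 promoters. CTTTGA was found in 7 members (11.3%, against 16.003% of all promoters). A match describes these letters and is not a site.

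The 70 genes fall into 6 H1, 20 H2A, 19 H2B, 12 H3 and 13 H4 genes. Of them, 56 carry Hist1 symbols and lie on chromosome 13, where Hist1h2al, at chr13:51202688-51203065, lies apart from the clustered rest, 10 in Hist2 on chromosome 3, 3 in Hist3 on chromosome 11 and 1, Hist4h4, on chromosome 6. Most values were low: of 560 values, 318 were 0 and 100 more lay at or below 2.95 FPKM, the median lowest value above 0.01 FPKM of genes with models of 300 to 600 bases, the usual size of a histone gene. Only 18 members exceeded 10 FPKM in any library, and 11 were above 0 in all 8. A total of 13 members were listed at 0 in every library: Hist1h1t, Hist1h2aa, Hist1h2ak, Hist2h2ab, Hist1h2ba, Hist1h2bh, Hist1h2bl, Hist3h2bb-ps, Hist1h3a, Hist1h3g, Hist1h3h, Hist1h4j and Hist2h4. Another 13 failed the filter for testing (1 FPKM or more in at least 2 of 8 libraries), with highest values from 0.573 FPKM in Hist4h4 to 11.5 FPKM in Hist1h4c. Hist1h4c was above 0 in LoF library 3 alone. The remaining 44 members passed, among 12888 genes tested. A member could pass through 1 group alone, so counts over the 44 are not counts over the set.

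Summed over the 70 genes, FPKM was 881 and 910 in GoF, 232, 425, 404 and 225 in LoF, and 229 and 361 in WT. Both GoF sums lay above all others, at 3.04 times the WT mean and 2.78 times the LoF mean, while LoF and WT sums overlapped. Hist1h2bc, Hist1h1c, Hist2h2aa1 and Hist2h2aa2 made up this difference: together they had 689 ± 98.2 FPKM in GoF, 78.7 ± 3.74 in LoF and 89.6 ± 5.44 in WT (SD, n = 2, 4 and 2). The other 66 genes summed to 206 ± 118 FPKM in GoF, 243 ± 107 in LoF and 205 ± 99.4 in WT, and the groups overlapped. These sums hold moves in both directions. The Hist1-cluster H2A genes other than Hist1h2al had 46.3 ± 49.6 FPKM in GoF and 150 ± 89.3 in WT, whereas Hist1h2bg had 112 FPKM in GoF library 2 and 0 in WT. In cells pooled as here, more cells with a transcript and more RNA per cell cannot be told apart.

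**Figure D1:**
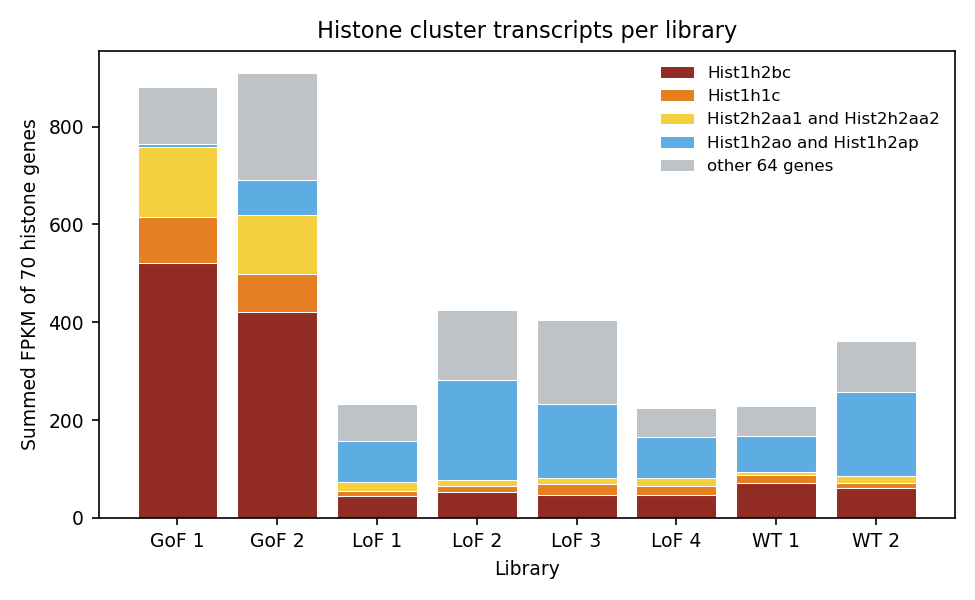
Summed FPKM of the 70 histone cluster genes in each library, stacked by gene, with GoF libraries left of LoF and WT. Hist1h2bc, Hist1h1c and the Hist2h2aa1 and Hist2h2aa2 pair fill most of both GoF bars (881 and 910 FPKM), while Hist1h2ao and Hist1h2ap form the largest coloured block in the LoF and WT bars.

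Among H2B genes, Hist1h2bc (chr13:23684199-23692488 in the deposited table, on mm10 per the submitters' processing notes) dominated. It had 522 and 421 FPKM in GoF, 44.0, 52.3, 46.0 and 47.5 in LoF, and 70.2 and 60.7 in WT. Both GoF values stood far above the rest, and every LoF value lay below both WT values. The GoF mean was 7.20 times the WT mean and 9.94 times the LoF mean, and Hist1h2bc supplied 59.2% and 46.3% of all histone FPKM in GoF, 11.4% to 21.1% in LoF, and 30.7% and 16.8% in WT. Within LoF, the libraries with Y-linked transcripts had 52.3 and 46.0 FPKM and those with Xist 44.0 and 47.5, so the sexes overlapped there.

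Lower H2B genes with the same order included Hist1h2be, at 4.99 and 5.44 FPKM in GoF, 0, 0, 0.322 and 0 in LoF, and 0.269 and 0.537 in WT. Hist1h2bq had 2.80 and 5.80 FPKM in GoF, 0.291, 0.285, 1.11 and 0.314 in LoF, and 0.936 and 0.657 in WT. In both genes the GoF libraries overlapped with no other library. Hist1h2bg differed: it had 0 and 112 FPKM in GoF, 3.30, 12.9, 0.808 and 4.10 in LoF, and 0 in both WT libraries. Its GoF mean thus rests on GoF library 2. The 18 H2B genes other than Hist1h2bc summed to 19.6 and 134 FPKM in GoF, 5.29 to 13.2 in LoF, and 14.2 and 5.79 in WT, and Hist1h2bg gave none of the 19.6 FPKM and 112 of the 134 FPKM.

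Of the linker histones, Hist1h1c (chr13:23738808-23740367) had 93.0 and 77.9 FPKM in GoF, 11.1, 13.4, 23.4 and 18.2 in LoF, and 17.1 and 9.76 in WT. The GoF libraries did not overlap the others, with a mean 6.37 times that of WT and 5.17 times that of LoF. The other 5 H1 genes together had 5.15 and 4.08 FPKM in GoF, 4.81 to 14.5 in LoF, and 6.59 and 5.97 in WT. Here the order was the opposite against WT, though the GoF sums overlapped with LoF. Hist1h1e had 3.67 and 1.10 FPKM in GoF, 1.12 to 5.32 in LoF, and 4.97 and 1.18 in WT, and Hist1h1b reached 12.9 FPKM in LoF library 3 but was at 0 in GoF library 1 and WT library 1.

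Among H2A genes, Hist2h2aa1 (chr3:96245497-96246082) had 72.3 and 64.4 FPKM in GoF, 8.53, 5.54, 5.92 and 8.33 in LoF, and 3.82 and 8.85 in WT. Hist2h2aa2 had 71.6 and 56.2 FPKM in GoF, 10.4, 6.01, 6.05 and 8.06 in LoF, and 2.35 and 6.44 in WT. In both genes the GoF libraries lay above all others. These are near-identical copies: all 50-base windows of the Hist2h2aa2 transcript occur elsewhere in the annotated transcripts, and 89.4% of those of Hist2h2aa1, so the split of reads between them is uncertain. Hist1h2al, annotated as a processed pseudogene, shares 65.5% of its windows with Hist2h2aa2 and followed the same order, at 14.2 and 22.3 FPKM in GoF, 0, 0, 0 and 4.19 in LoF, and 0 in WT.

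Hist1h2ao had 2.56 and 45.9 FPKM in GoF, 51.1, 180.1, 77.8 and 75.3 in LoF, and 72.3 and 129.5 in WT. Both GoF values were below every other library, at 0.240 times the WT mean, although the GoF libraries themselves lay far apart. Its near copy Hist1h2ap had 3.26 and 24.5 FPKM in GoF, 31.9, 23.9, 74.3 and 7.55 in LoF, and 1.72 and 42.5 in WT, and the groups overlapped. Hist1h2ag had 1.43 and 0 FPKM in GoF, 4.95, 19.6, 37.3 and 3.97 in LoF, and 1.51 and 4.52 in WT, so GoF was lowest by a small margin against WT. Hist1h2ai had 0 and 0.715 FPKM in GoF, 9.46, 7.24, 18.8 and 3.80 in LoF, and 0 and 13.4 in WT, and overlapped with WT.

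Summed over the 14 Hist1-cluster H2A genes other than Hist1h2al, GoF libraries had 11.3 and 81.4 FPKM, LoF libraries 122, 279, 249 and 104, and WT libraries 86.5 and 213. The higher GoF library fell just short of the lower WT library. Hist1h2ac and Hist1h2ah were at 0 in both GoF libraries. Hist1h2ac had 0 to 12.1 FPKM in LoF and 1.97 and 7.90 in WT, and Hist1h2ah 1.23 to 2.25 FPKM in LoF and 1.75 and 2.50 in WT. These values lie near the level of the lowest detected short genes, where a 0 does not show absence. Hist1h2ad broke the pattern, at 4.01 and 3.77 FPKM in GoF, 17.5, 10.3, 12.0 and 0 in LoF, and 0 in both WT libraries.

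**Figure D2:**
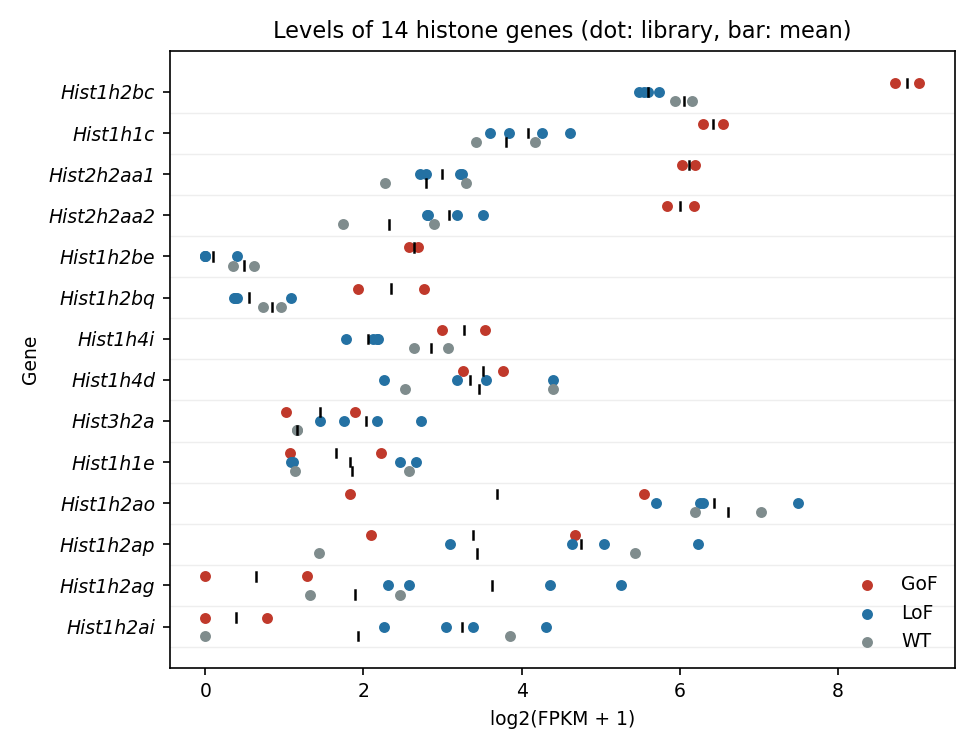
FPKM of 14 histone genes on a log2(FPKM + 1) axis, with 1 dot per library, a bar at each group's mean and GoF drawn above LoF and WT within each gene. GoF dots lie to the right for Hist1h2bc, Hist1h1c, Hist2h2aa1, Hist2h2aa2, Hist1h2be and Hist1h2bq, and to the left for Hist1h2ao and Hist1h2ag.

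H3 and H4 genes were low. The 12 H3 genes summed to 15.99 and 12.5 FPKM in GoF, 1.32 to 6.58 in LoF, and 0.193 and 6.89 in WT, with no overlap between GoF and the rest. Hist2h3c1 had 6.05 and 2.50 FPKM in GoF, 0 to 1.85 in LoF, and 0.193 and 0.388 in WT, and Hist1h3d had 2.57 and 1.87 FPKM in GoF and 0 in all 6 other libraries. The 13 H4 genes summed to 55.1 and 32.9 FPKM in GoF, 11.6 to 41.5 in LoF, and 23.9 and 43.0 in WT, which overlapped. Hist1h4d, the H4 gene with the highest mean, had 12.6 and 8.57 FPKM in GoF, 3.80 to 20.0 in LoF, and 4.75 and 20.2 in WT. Hist1h4i had 10.7 and 6.94 FPKM in GoF, 3.54, 3.35, 2.42 and 3.51 in LoF, and 5.21 and 7.43 in WT, so it was lowest in all 4 LoF libraries.

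**Figure D3:**
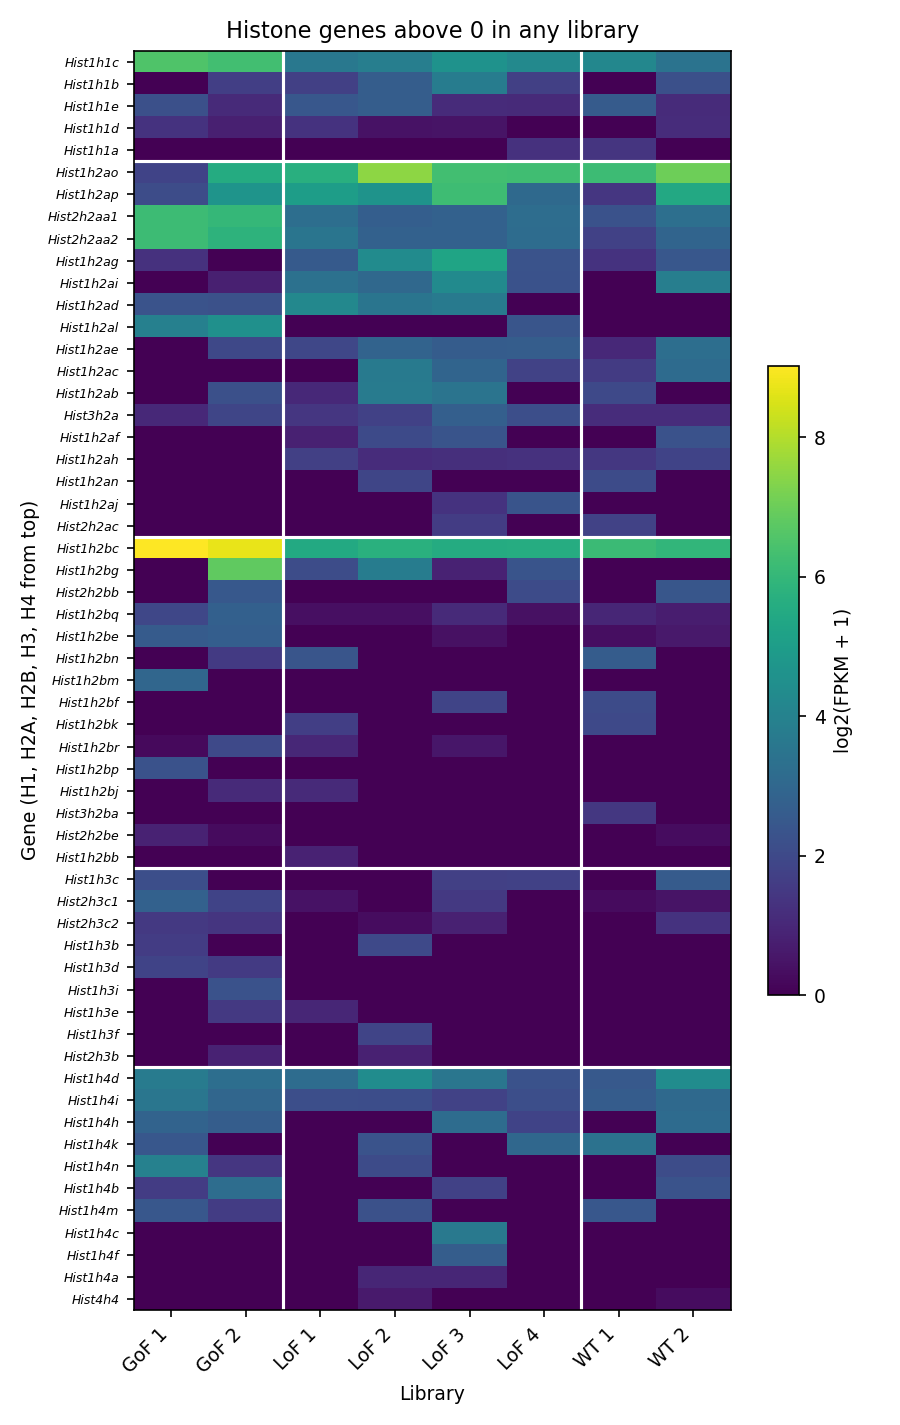
Heat map of log2(FPKM + 1) for the 57 histone genes above 0 in at least 1 library, with libraries in columns (GoF, LoF, WT) and genes grouped by type and ordered by mean within it. The Hist1h2bc, Hist1h1c, Hist2h2aa1 and Hist2h2aa2 rows are brightest in GoF, the Hist1h2ao, Hist1h2ag and Hist1h2ah rows are darkest there, and most H2B, H3 and H4 cells are at or near 0.

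Taken over all 70 genes, mean FPKM was higher in GoF than in WT for 10 of 19 H2B genes and 7 of 12 H3 genes, with 4 and 1 lower. For H2A the numbers were 6 higher and 10 lower of 20, for H4 5 and 3 of 13, and for H1 2 and 3 of 6. In the fit across all genes (limma on log2(FPKM + 1), Benjamini-Hochberg adjusted p under 0.05), 6 of the 44 tested members were called higher in GoF than in WT and none lower, where 2.31% of all tested genes were called, 1.41% higher and 0.9% lower. Those 6 were Hist1h2bc, Hist1h1c, Hist2h2aa1, Hist2h2aa2, Hist1h2al and Hist1h2be. Hist1h2be passed the filter only through its GoF libraries, and Hist1h2al would not have passed without them. Since the set was also chosen on this contrast, nothing is read from the count. It was 1 without GoF library 1, 1 without WT library 1, 3 without WT library 2, and 0 with sex as a covariate. The median log2 difference of the 44 was 0.20, beside -0.08 over all tested genes. Groups did not overlap for 12 members higher in GoF and 4 lower, where 48% of all tested genes did not overlap, 21.8% higher and 26.2% lower. Several of the 12, among them Hist1h3d, Hist2h3c1 and Hist2h3c2, also needed their GoF libraries to pass the filter, so nothing is read from this count.

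Against LoF, 8 members were called higher in GoF and 1, Hist1h2ag, lower, where 11.6% of all tested genes were called, 5.97% higher and 5.68% lower. Besides the 6 genes named above, these were Hist1h2bq and Hist1h3d. The set was chosen on GoF values against both other groups. Hist1h3d and Hist1h2be passed the filter only through their GoF libraries, and Hist1h2al and Hist1h2bq would not have passed without theirs. Nothing is therefore read from these calls or from the overlap counts below. Without GoF library 1 the total of 9 was 4. The median log2 difference was 0.19, beside -0.17 over all tested genes. Groups did not overlap for 11 members higher in GoF and 5 lower, beside 33.5% of all tested genes, 14.8% higher and 18.7% lower. Both contrasts share the GoF libraries.

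The comparison of LoF with WT was not used to choose the set, and no histone gene passed the test in it. None of the 44 members was called by limma (adjusted p under 0.05), where 1.23% of all tested genes were called, 0.566% higher and 0.667% lower, and 1 member, Hist1h2ad, had an unadjusted p under 0.05. Its log2 difference was 2.85 (SE 1.00, adjusted p = 0.237 by limma). The gene was at 10.3 to 17.5 FPKM in 3 LoF libraries and at 0 in LoF library 4 and both WT libraries, and it was called only without LoF library 4 (adjusted p = 0.0151 by limma). Hist1h2bc, below both WT values in 4 of 4 LoF libraries, had a log2 difference of -0.46 (95% interval -0.98 to 0.07, adjusted p = 0.454 by limma). Hist1h4i, also lower in 4 of 4, had -0.79 (95% interval -1.72 to 0.13, adjusted p = 0.460 by limma).

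For Hist1h1c the log2 difference of LoF against WT was 0.28 (SE 0.38, adjusted p = 0.816 by limma), and for Hist2h2aa1 it was 0.21 (SE 0.39, adjusted p = 0.875). Hist2h2aa2 had 0.76 (SE 0.42, adjusted p = 0.493 by limma). The abundant Hist1h2ao had -0.17 (95% interval -2.07 to 1.72, adjusted p = 0.960 by limma), an interval that holds large changes in either direction. Hist3h2a, at 1.72, 2.38, 5.65 and 3.51 FPKM in LoF and 1.23 and 1.22 in WT, was higher in 4 of 4 LoF libraries with a log2 difference of 0.87 (SE 0.52, adjusted p = 0.528 by limma). Groups did not overlap for 2 members higher in LoF (Hist3h2a and Hist1h2bg) and 2 lower (Hist1h2bc and Hist1h4i), beside 21.4% of all tested genes, 11.5% higher and 9.88% lower. The median log2 difference over the 44 was -0.07, beside 0.06 over all genes.

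Many H2A and H2B genes are arranged head to head around a shared promoter. Among the members, 13 such pairs had annotated starts at most 500 bases apart. In GoF against WT, the H2B partner had the higher mean in 7 pairs, the lower in 3 and was at 0 in both groups in 3. The H2A partner had the higher mean in 2 pairs, the lower in 9 and was at 0 in both in 2. In 7 of the 13 pairs the H2B gene was higher and its H2A neighbour lower in GoF. Several of these 7 rest on 1 GoF library or on low values. In GoF, Hist1h2bg had 0 and 112 FPKM, Hist1h2bj 0 and 1.13, Hist1h2bp 3.88 and 0, and Hist2h2be 0.820 and 0.215. Hist1h2ao shares 93.5% of its 50-base windows with Hist1h2ap, and Hist1h2bq 98.5% with Hist1h2br, so their pairs are not separate.

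Hist1h2ac and Hist1h2bc, 251 bases apart, gave the widest contrast: Hist1h2ac was listed at 0 in both GoF libraries, where Hist1h2bc had 522 and 421 FPKM. The pair of Hist1h2ao and Hist1h2bq, 268 bases apart, likewise had a lower H2A gene (24.3 FPKM on average in GoF, 96.1 in LoF and 101 in WT) and a higher H2B gene (4.30 in GoF, 0.501 in LoF and 0.797 in WT). Against LoF, the H2A partner was lower in 11 pairs and higher in none, and the H2B partner higher in 7 and lower in 3. Some of the 11 rest on 1 LoF library: Hist2h2ac had 2.07 FPKM in LoF library 3 and Hist1h2an 2.67 in LoF library 2, with all other LoF and both GoF libraries at 0. The share of all genes with a lower mean was not computed, so nothing is read from the pair counts against either group. Smart-seq2 does not mark the strand, so reads that span a shared promoter cannot be assigned to 1 gene by strand.

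**Figure D4:**
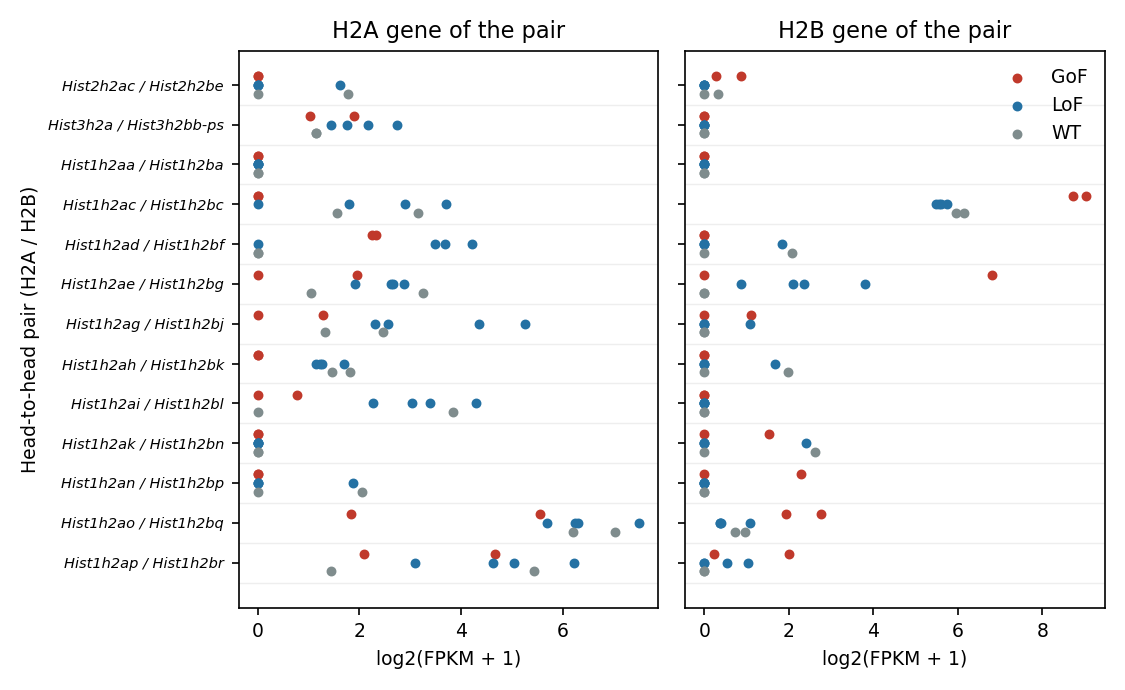
Log2(FPKM + 1) of the H2A (left) and H2B (right) gene of 13 head-to-head pairs, 1 dot per library, with GoF drawn above LoF and WT. The GoF dots of Hist1h2bc lie far right of all others in the right panel, while those of its partner Hist1h2ac lie at 0 in the left panel.

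The members that were high in GoF had annotated models of several kinds. Hist1h1c, Hist2h2aa1 and Hist2h2aa2 are among the 42 single-exon models with the stem-loop letters, of which 19 had a higher mean in GoF than in WT and 13 a lower one. Of the 21 single-exon models without these letters, 5 were higher and 8 lower. Several of the 21 are short. The model of Hist1h2ai has 393 bases, whereas the element of Hist1h2ao begins at base 434 of its transcript. That of Hist1h4k has 312 bases, whereas the element of Hist1h4f begins at base 343. Such models may stop before the stem-loop, so these classes describe the annotation and not how the mRNAs end. Another 5 members have a model with more than 1 exon: Hist1h2bc, Hist1h2be, Hist1h2bp, Hist1h2bq and Hist1h2br, all of them H2B genes. In 5 of 5 the GoF mean exceeded the LoF and WT means. In the 4 head-to-head pairs with such an H2B gene, the H2A partner had a lower mean in GoF than in WT in 4 of 4. Of these partners, Hist1h2ap overlapped between GoF and WT, and Hist1h2an had 3.16 and 0 FPKM in WT. The set was proposed on Hist1h2bc, and Hist1h2be passed the filter only through GoF. Hist1h2bq and Hist1h2br are near copies. Nothing is therefore read from these counts. Summed, the 5 genes had 534 and 436 FPKM in GoF, 45.3 to 52.6 in LoF, and 71.4 and 61.9 in WT, nearly all from Hist1h2bc. Hist1h2bp had 3.88 and 0 FPKM in GoF and 0 elsewhere, and Hist1h2br 0.168 and 2.98 FPKM in GoF, 0 to 1.03 in LoF and 0 in WT, so these 2 are near the detection level.

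A poly(A) signal (AATAAA or ATTAAA within the last 50 bases of a model) was found in 17 members. These summed to 129.8 and 113 FPKM in GoF, 20.9 to 49.6 in LoF, and 27.7 and 37.0 in WT, much of it from Hist1h1c. Of the 17, 10 had a higher mean in GoF than in WT and 3 a lower one. Of the 51 without the signal, 19 were higher and 18 lower. A model that stops early can miss the signal, so the genes of these 51 need not lack it. Hist1h2bc is among the 51, and the end of its model in vM21 differs from the coordinates of the deposited table. The share of transcripts that carried a poly(A) tail was not measured.

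Sequence sharing limits single-gene values throughout. Of the 68 genes with a model, 64 share at least one 50-base window with another gene and 35 share at least 50% of their windows, with a median of 53.0%. Hist1h2bc shares 30.1% and Hist1h1c 8.54%, in models that need not be those the authors used. Where along the transcripts the reads fell was not measured. Hist1h2bq shares 98.5%, nearly all with Hist1h2br. In addition, 25 of the 68 overlap the locus of another annotated gene.

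The genes that work with the histones are not members and were tested in all 3 comparisons. Their lists were chosen with earlier results of these data known, so these tests are not independent of the data. Of all 12888 tested genes, 1.41% were called higher and 0.9% lower in GoF than in WT, and 5.97% higher and 5.68% lower in GoF than in LoF, and the counts below are to be read against these shares. Of 13 tested genes for histone gene transcription and mRNA 3′ end processing, none was called in GoF against WT by limma (1 at an unadjusted p under 0.05) and 1 was lower in GoF than in LoF. Their median log2 difference was -0.50 against WT and -0.55 against LoF, beside -0.08 and -0.17 over all tested genes. The gene called was Slbp, whose protein binds the stem-loop, with 6.28 and 13.6 FPKM in GoF, 25.8, 31.2, 50.5 and 33.1 in LoF, and 24.1 and 14.1 in WT. Slbp was lower in GoF than in every other library, with a log2 difference of -1.77 against LoF (SE 0.41, adjusted p = 0.0213 by limma, 0.0151 to 0.243 over 17 alternatives) and -0.92 against WT (SE 0.47, adjusted p = 0.430). Npat, the coactivator at histone gene clusters, had 4.83 and 1.91 FPKM in GoF, 2.90 to 6.60 in LoF, and 2.18 and 1.89 in WT, and was not called in any comparison.

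The list of replication-independent variants holds 11 genes, most of them also made outside S phase from polyadenylated mRNAs. In GoF against WT, 0 of 11 were called by limma (4 at an unadjusted p under 0.05, median log2 difference -0.29). In GoF against LoF, 2 of 11 were lower in GoF (median -0.71). H2afv, which encodes an H2A.Z protein, had 13.6 and 11.7 FPKM in GoF, 49.7 to 124.6 in LoF, and 33.8 and 38.8 in WT. It fell by 2.60 on the log2 scale against LoF (SE 0.36, adjusted p = 0.00161 by limma, at most 0.0428 over 17 alternatives). H2afz, the main H2A.Z gene, had 137 and 214 FPKM in GoF, 255 to 525 in LoF, and 354 and 498 in WT, with a log2 difference of -1.17 against LoF (adjusted p = 0.0428 by limma, lost in 13 of 17 alternatives). The H3.3 genes H3f3a and H3f3b were abundant in all groups and were not called: H3f3a had 276 and 294 FPKM in GoF, 215 to 504 in LoF, and 322 and 273 in WT. Of 17 histone chaperones, 2 were lower in GoF than in LoF, Ssrp1, a subunit of FACT (log2 difference -1.29, adjusted p = 0.0214 by limma), and Nasp, a carrier of H3 and H4 (-1.45, adjusted p = 0.0339, lost in 10 of 17 alternatives). The count of 2 was 5 without LoF library 1 and 0 with the replicate block. None of the 17 was called by limma in GoF against WT (4 at an unadjusted p under 0.05), and the list's median log2 difference was -0.76 against WT and -0.79 against LoF.

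Part of the DNA replication list was lower in GoF. Of 28 genes tested, 9 were called lower and none higher in GoF than in LoF, with a median log2 difference of -1.22 beside -0.17 over all genes. Against WT, 2 were called lower and none higher, with a median of -1.35 beside -0.08. Mcm4, a subunit of the replicative helicase, had 0 and 0.607 FPKM in GoF, 8.57 to 24.7 in LoF, and 17.5 and 7.45 in WT (log2 difference against WT -3.30, SE 0.62, adjusted p = 0.0257 by limma, and against LoF -3.37, adjusted p = 0.00357). Rfc4, a subunit of the clamp loader, fell by 2.84 on the log2 scale against WT (adjusted p = 0.0280 by limma) and by 3.03 against LoF (adjusted p = 0.00329). Pcna, the sliding clamp, had 17.9 and 32.0 FPKM in GoF, 43.8 to 65.7 in LoF, and 55.0 and 47.7 in WT, and was called against LoF (-1.24, adjusted p = 0.0319 by limma) but not against WT (-1.06, adjusted p = 0.202). The other 6 lower than in LoF were Dtl, Dut, Rrm1, Uhrf1, Mcm6 and Tk1. Over 17 alternatives the call against LoF was lost in 16 for Tk1, 13 for Mcm6, 12 for Pcna and 11 for Uhrf1. It was lost in 5 for Rrm1, 4 each for Dtl and Dut, 2 for Rfc4 and 1 for Mcm4. Against WT it was lost in 9 for Mcm4 and 8 for Rfc4. Without GoF library 1 neither comparison called any gene of this list, and without either WT library the count against WT was 0. With sex as a covariate the counts were 3 against LoF and 0 against WT.

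Of 21 mitosis genes, 2 were lower in GoF than in WT (0.9% of all tested genes). Aurkb, the chromosomal passenger kinase, had a log2 difference of -2.95 (SE 0.50, adjusted p = 0.0147 by limma, lost in 7 of 17 alternatives). Prc1, a spindle midzone protein, had -2.40 (adjusted p = 0.0425 by limma, lost in 13 of 17 alternatives). Against LoF 3 were lower (5.68% of all tested genes), Aurkb, Top2a and Ccnb2, and Top2a, the topoisomerase of condensing chromosomes, had -2.53 (adjusted p = 0.00676 by limma). Mki67, the common marker of cycling cells, had 0.775 and 0.972 FPKM in GoF, 1.32 to 6.43 in LoF, and 4.97 and 7.65 in WT, below every other library but not called (adjusted p = 0.179 against WT and 0.137 against LoF by limma). The list's median log2 difference was -1.48 against WT and -1.10 against LoF. The counts were 0 against both groups without GoF library 1, and 0 against WT without either WT library.

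Of 12 tested inhibitors of the cell cycle and D cyclins, Cdkn1a, which encodes the p21 inhibitor, was higher in GoF. It had 642 and 667 FPKM in GoF, 145, 59.2, 76.7 and 163 in LoF, and 75.7 and 119.5 in WT. The log2 difference was 2.77 against WT (SE 0.47, adjusted p = 0.0153 by limma, 0.0109 to 0.185 over 17 alternatives) and 2.67 against LoF (SE 0.41, adjusted p = 0.00287, 0.00105 to 0.0710). Cdkn2c, the p18 inhibitor, was lower in GoF than in LoF (-2.34, adjusted p = 0.0219 by limma). The list's median log2 difference was -0.17 against WT and -0.27 against LoF, beside -0.08 and -0.17 over all tested genes. Its 13 genes summed to 2460 and 841 FPKM in GoF, 214 to 366 in LoF, and 245 and 243 in WT. Most of the sum in GoF library 1 was thus not from Cdkn1a, and the GoF libraries lay far apart. In LoF against WT none of the 6 lists held a gene called by limma, and each held 0 to 3 genes at an unadjusted p under 0.05. Without GoF library 1 no gene of this list was called against LoF.

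**Figure D5:**
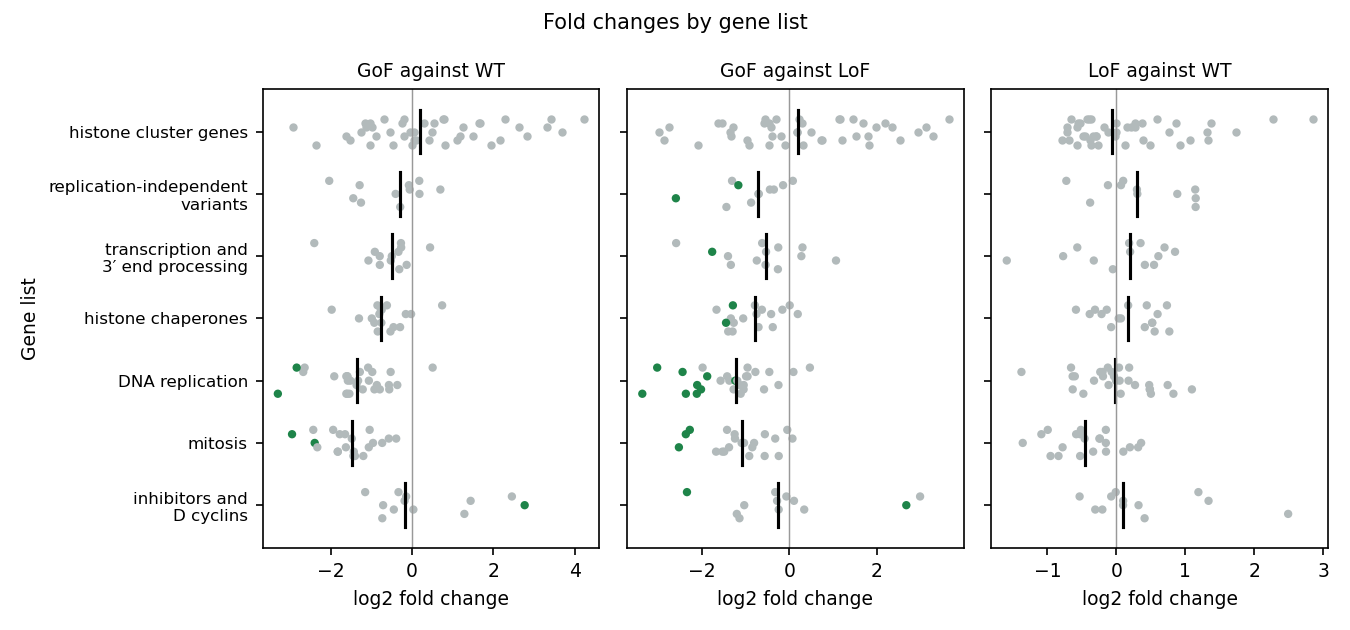
Log2 fold changes of the tested genes of 7 lists in 3 comparisons (GoF against WT, GoF against LoF, LoF against WT), with 1 dot per gene, a black bar at the median, and list genes called at adjusted p under 0.05 in green. Histone cluster genes are drawn without calls and spread from -2.92 to 4.23 in GoF against WT, whereas the bars of DNA replication and mitosis lie at -1.35 and -1.48.

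Transcripts of other cell types moved between libraries. Summed erythroid markers (6 genes) had 210.3 and 505 FPKM in GoF, 29.5 to 656 in LoF, and 912 and 4015 in WT, nearly all from the globins Hba-a1 and Hbb-bt. Hbb-bt was the single erythroid gene called (log2 difference of GoF against WT -7.16, adjusted p = 0.0464 by limma, lost in 13 of 17 alternatives). Myeloid markers (6 genes) summed to 12.0 and 8.28 FPKM in GoF, 5.49 to 64.2 in LoF, and 180.5 and 43.2 in WT. Mpo was lower in LoF than in WT (log2 difference -2.75, adjusted p = 0.0261 by limma, lost in 12 of 17 alternatives). Osteoclast markers (4 genes) summed to 98.8 and 96.4 FPKM in GoF, 58.1 to 73.0 in LoF, and 72.4 and 63.8 in WT, with Ocstamp at 0 in all libraries. Acp5 had 22.3 and 17.6 FPKM in GoF, 1.08 to 6.99 in LoF, and 3.23 and 5.30 in WT, and was higher in GoF than in LoF (log2 difference 2.17, adjusted p = 0.0319 by limma, lost in 10 of 17 alternatives). Endothelial markers (5 genes) reached 57.0 FPKM in LoF library 3 and at most 6.83 elsewhere, and lymphoid markers (3 genes) were at 0 in GoF and at most 8.48 in LoF library 2. The part of these cells in the histone and cell cycle values was not tested.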

How the data were processed

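Bulk Smart-seq2 libraries (4 LoF, 2 GoF and 2 WT, with groups taken from the sample labels) were analysed from the table of FPKM values that the authors deposited, 1 column per library and 48490 genes after 65 repeated lines with identical values were counted once. The submitters' processing notes name HISAT2, SAMtools 0.1.18, Cufflinks, HTSeq and the mm10 build without giving their roles, and their annotation release is not given in the sources used here. No read totals can be taken from FPKM, so depth is known only relative to one library, from the size of the lowest values.

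Genes with at least 1 FPKM in at least 2 of 8 libraries (12888) were fitted on log2(FPKM + 1) with limma 3.58.1 in R 4.3.3, with all 8 libraries, no covariate and a mean-variance trend, and were called at a Benjamini-Hochberg adjusted p under 0.05. The fit was checked on simulated data. The added pseudocount shrinks the differences of genes with low values. Alternatives were a pseudocount of 0.1, no filter, median ratio scaling, quantile normalization, a fit of only the groups compared, no trend, a replicate block, leaving out each library, and, chosen after seeing the data, sex as a covariate and a fit without LoF libraries 2 and 3. The genes named are the members that passed the filter and the highest members of each histone type, up to 4 called genes of each list by adjusted p, and Slbp, Npat, H3f3a, H3f3b, H2afz, Pcna, Mki67, Top2a and Ctnnb1. Of the DNA replication list, Cdt1 and Gins2 matched no row. The members and lists were chosen with earlier results of these data known.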

Additional observations from a re-analysis of the deposited data

Results flagged for a closer look

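Within the 4 LoF libraries, the 51 histone genes above 0 in at least 1 of them and 28 other values of the text (sums, marker sums and named genes) were checked for a library far from the others, by the gap to its nearest neighbour over the whole range (Dixon's 95% critical value), and 22 histone genes and 5 other values were marked. In 23 of these 27 the other 3 LoF libraries were at 0, so the mark records a single detected value, and chance alone marks about 1 in 20 groups. LoF library 1 stood apart for Hist1h2bn (4.27 FPKM), Hist1h2bk (2.21 FPKM), Hist1h2bj (1.10 FPKM), Hist1h3e (0.953 FPKM) and Hist1h2bb (0.826 FPKM). LoF library 2 stood apart for Hist1h4m (3.77 FPKM), Hist1h4n (3.18 FPKM), Hist1h3b (2.94 FPKM), Hist1h2an (2.67 FPKM), Hist1h3f (2.63 FPKM), Hist2h3b (0.790 FPKM) and Hist4h4 (0.573 FPKM). LoF library 3 stood apart for Hist1h4c (11.5 FPKM), Hist1h4f (5.41 FPKM), Hist1h2bf (2.58 FPKM), Hist1h4b (2.33 FPKM), Hist2h2ac (2.07 FPKM), Hist1h2be (0.322 FPKM) and Hist1h2bq (1.11 FPKM, the next library being at 0.314 FPKM). LoF library 4 stood apart for Hist1h2al (4.19 FPKM), Hist2h2bb (3.20 FPKM) and Hist1h1a (1.43 FPKM).

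Of the other values, endothelial markers summed to 57.0 FPKM in LoF library 3 (next 6.83 FPKM) and lymphoid markers to 8.48 FPKM in LoF library 2. Npat had 6.60 FPKM (next 3.45 FPKM) and Mpo 0.252 FPKM in LoF library 1, and Mcm4 had 24.7 FPKM in LoF library 4 (next 9.90 FPKM).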

How the results depend on the processing

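Of the called histone and pathway genes named here, and Hbb-bt, Acp5 and Mpo, none changed sign under any of the 17 alternatives. Several of these could not change a sign. A fit with no trend, with no filter or of only the groups compared leaves each difference as it was. So does leaving out a library of the group not compared. For the histone genes, proposed with a GoF level in view, the sign is a description. For GoF against WT, 298 genes were called in all, and 0 in a fit of only the groups compared, 15 with a replicate block, 11 with sex as a covariate, 127 without LoF libraries 2 and 3, and 39 to 332 with each library left out. Histone genes called there numbered 6, and 0 in a fit of only the groups compared, 1 with the replicate block, 0 with sex as a covariate, 3 without LoF libraries 2 and 3, and 1 to 6 with each library left out. For LoF against WT, 159 genes were called, and 83 with a pseudocount of 0.1, 53 with no filter, 0 in a fit of only the groups compared, 54 with no trend, 1 with the replicate block, 14 with sex as a covariate, 0 without LoF libraries 2 and 3, and 0 to 135 with each library left out. Histone genes called there numbered 0, and 0 to 1 with each library left out. For GoF against LoF, 1501 genes were called, and 727 with the replicate block, 974 with sex as a covariate, 664 without LoF libraries 2 and 3, and 429 to 1369 with each library left out. Histone genes called there numbered 9, and 5 with the replicate block and 4 to 9 with each library left out. The cause was not tested, beyond the fewer libraries that some of these fits hold. Where 1 library was left in a group, it was assumed to vary like the other groups.

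The deviations of same-numbered libraries from their group means had correlations of -0.00687 to 0.0303. Within GoF and within WT the deviations of the libraries mirror one another, so few of these correlations are independent. They cannot show whether the replicate numbers pair the libraries. The split of calls in LoF against WT was 73 higher and 86 lower, and 80 and 147 under quantile normalization. In GoF against WT it was 182 and 116, 112 and 127 with a pseudocount of 0.1, and 210 and 92 with no filter. In GoF against LoF it was 769 and 732, and 983 and 663 under median ratio scaling. The median of all genes in GoF against LoF was -0.17 on the log2 scale, -0.05 under median ratio scaling and -0.03 under quantile normalization. The summed histone FPKM in GoF was 895, 972 under median ratio scaling and 881 to 910 with each library left out. It was 322 in LoF (287 to 354) and 295 in WT (229 to 361). For members near the lowest detected values, a difference that was not called does not show that the groups were alike.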
